A study of Homo sapiens with 17 samples.

Results

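A set of 103 genes responded to FOXA1 knockdown in opposite directions in 2 related prostate cancer cell lines: 55 were higher in LNCaP and lower in abl, and 48 were lower in LNCaP and higher in abl. LNCaP is an established human line that the labels call androgen dependent, and LNCaP-abl (abl here) is its derivative that they call androgen independent. The genes were chosen by their measured siFOXA1 response. Counts of the 2 libraries of a group were summed and scaled to the group's gene-assigned reads as CPM, the usual per-megaread unit (pooled CPM), 0.5 CPM was added, and siFOXA1 was divided by siControl. A gene was taken when this fold was at least 1.5 in one line and at most 0.667 in the other, and when pooled CPM reached 2 in at least 1 of the 4 groups. Of 23230 genes in the count tables, 13157 reached that level. All siFOXA1 values below are therefore descriptions of what the choice used, and no test is attached to them.

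RNA was sequenced from 6 groups of 2 libraries: each line was given a control siRNA, one targeting CREB1 or one targeting FOXA1 (siControl, siCREB1 and siFOXA1), all at 40 nM for 3 days. LNCaP was grown in 10% FBS and used at passages 32 to 34, abl in 10% charcoal-stripped FBS, which is poor in steroid hormones, at passages 62 to 64. All 6 groups were treated in 5% charcoal-stripped FBS, so the siControl cells of both lines carried an siRNA and low hormone as well. The labels do not say whether the 2 libraries of a group came from separate cultures, so p-values measure only the spread between these libraries, which may be technical. Gene-assigned reads ranged from 9092597 in the second abl siControl library to 37314039 in the first. All 7 luminal prostate markers summed here (among them KRT8 and KLK3) were present in every library, at 2131 to 3261 CPM in sum. In abl the sums were 2627 and 2619 CPM under siControl, 2166 and 2131 CPM under siFOXA1 and 2144 and 2186 CPM under siCREB1. The sums of both knockdowns thus lay below siControl, but the markers did not move together. CDH1 went from 1430 and 1550 CPM to 751 and 720 CPM under siFOXA1 and to 879 and 877 CPM under siCREB1. KRT8 went the other way, from 335 and 300 CPM to 551 and 534 CPM and to 406 and 413 CPM. Of 7 blood markers, 2 to 7 were above 0 in a library. They summed to 9.98 CPM in the first siControl library of LNCaP and 10.9 CPM in that of abl, against 2.8 to 7.11 CPM in the other 10 libraries. Results without these 2 libraries are given beside the siCREB1 comparisons. The 4 endothelial markers moved with the siRNA in LNCaP, at 31.6 and 29.6 CPM in sum under siControl, 3.53 and 2.9 CPM under siFOXA1 and 13 and 17.3 CPM under siCREB1, and stayed at 0.654 to 1.55 CPM in abl. VWF made up most of the LNCaP sums (30.8 and 28.5 CPM under siControl), while CDH5 was at 0 in 9 of the 12 libraries. The 7 fibroblast markers differed by line, at 60.1 to 104 CPM in LNCaP and 10.8 to 21.2 CPM in abl, most of it COL1A1, and COL1A2 was at 0 in all 12. Of the 4 basal markers, 0 to 4 were above 0 in a library, and they summed to at most 1.9 CPM. The part of these markers in the results was not tested. These are bulk samples, in which fewer cells of a type and less RNA per cell cannot be told apart.

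FOXA1 is a pioneer factor: it binds forkhead motifs in closed chromatin and makes sites accessible to other factors, in prostate luminal cells above all to factors that respond to steroid hormones. It is known both to help such factors bind and to keep them from other sites, so its loss can raise or lower a gene. CREB1 binds cAMP response elements and activates genes when protein kinase A or other kinases phosphorylate it. In LNCaP, FOXA1 itself stood at 802.7 and 714 CPM under siControl and at 225.2 and 218.6 CPM under siFOXA1. In abl it stood at 536.7 and 497.4 CPM, then 185.5 and 219.3 CPM. The siFOXA1 libraries were thus below the siControl libraries in both lines.

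Opposite responses were fewer than shared ones. Of the genes at the minimum level, 742 (5.64%) were past the fold limit upward in both lines and 732 (5.56%) downward in both, against the 55 members higher in LNCaP and lower in abl and 48 (0.365%) of the reverse pattern. Taken one line at a time, 10.4% of the genes at the minimum level were past the limit upward and 10.5% downward in LNCaP, and 14.3% and 15.6% in abl. Among the 55 genes higher in LNCaP, the median log2 pooled fold was 0.91 in LNCaP and -1.08 in abl, and among the 48 others it was -0.81 in LNCaP and 1.00 in abl. The 2 siFOXA1 libraries did not overlap the 2 siControl libraries in either line for 53 of the 55 (96.4%, against 7.59% of all genes at the minimum level in that pattern) and for all 48 (100%, against 5.56%). The exceptions were SERPINA1 and PABPC1L. The choice used these same libraries, so nothing is read from these shares. Over the 55 the log2 fold ran from 0.59 to 3.13 in LNCaP and from -2.86 to -0.63 in abl, and over the 48 from -2.77 to -0.59 in LNCaP and from 0.59 to 3.63 in abl.

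**Figure D1:**
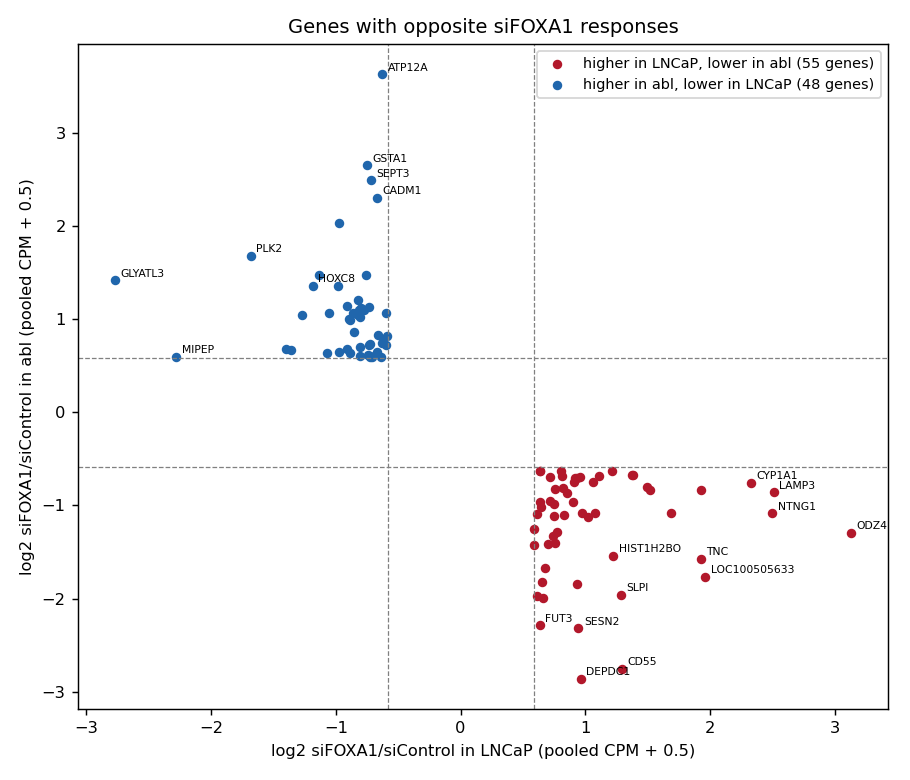
Log2 siFOXA1/siControl in LNCaP (x axis) against abl (y axis), from pooled CPM with 0.5 added, 1 point per member, coloured by direction; dashed lines mark the fold limits and some members are labelled. The 55 genes higher in LNCaP lie in the lower right corner and the 48 genes higher in abl in the upper left.

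In the authors' deposited tables, 98 of the 103 were listed in both lines, all 98 with opposite signs, 1 in LNCaP alone and 4 in abl alone. Of the genes at the minimum level, 47.2% were listed in the authors' deposited table for LNCaP, 62% in that for abl and 34.1% in both. Of 4629 genes in both of the authors' deposited tables, 463 had opposite signs. These tables hold the contrasts that chose the members, so nothing is read from them.

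Of the 25 gene lists, the stress response list held the most members: ATF3, SESN2, DNAJB9 and PPP1R15A, all higher in LNCaP and lower in abl. The integrated stress response slows general translation while the factor ATF4 switches on genes for amino acid supply and recovery. ATF3, a stress-induced transcription factor, measured 25.1 and 26.3 CPM under siControl and 56.1 and 52.8 CPM under siFOXA1 in LNCaP. In abl, ATF3 measured 82.8 and 95.2 CPM under siControl and 42.5 and 37.9 CPM under siFOXA1. The abl siControl group was the highest of the 4, and abl siFOXA1 lay between LNCaP siControl and LNCaP siFOXA1. The pooled fold was 2.11 in LNCaP and 0.474 in abl.

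SESN2, a leucine sensor that restrains mTORC1, went from 51.1 and 48.4 CPM to 98.9 and 95.1 CPM in LNCaP. In abl it went from 206 and 221 CPM to 45.2 and 38.1 CPM, so its pooled folds were 1.93 and 0.201. DNAJB9, a chaperone partner of the endoplasmic reticulum, was at 16.8 and 16.4 CPM, then 30.1 and 24.8 CPM in LNCaP. In abl DNAJB9 was at 126 and 111 CPM, then 51.1 and 40.8 CPM, still above every LNCaP library. PPP1R15A, which recruits the phosphatase that ends the response, had pooled folds of 1.51 and 0.419. It stood at 7.84 and 9.41 CPM, then 13.6 and 12.2 CPM in LNCaP, and at 23.1 and 23.9 CPM, then 10.9 and 8.02 CPM in abl.

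The stress response list as a whole was lower in abl and near its siControl level in LNCaP. Of its 24 genes, all at the minimum level, 23 (95.8%) were past the downward limit in abl and 0 past the upward one, with a median log2 pooled fold of -1.87. SDF2L1 was the exception, with a fold of 0.6673, just outside the limit. In LNCaP, 4 of the 24 were past the upward limit and 3 past the downward one (PSAT1, XBP1 and SLC7A11), with a median of 0.0116. The 4 upward genes were the members ATF3, SESN2, DNAJB9 and PPP1R15A. For ATF4 itself the fold was 0.884 in LNCaP and 0.279 in abl, and for DDIT3 (CHOP) it was 1.23 and 0.165. Over all genes at the minimum level the median was 0.0388 in LNCaP and 0.00246 in abl. Past the upward and downward limits were 10.4% and 10.5% of them in LNCaP, and 14.3% and 15.6% in abl.

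**Figure D2:**
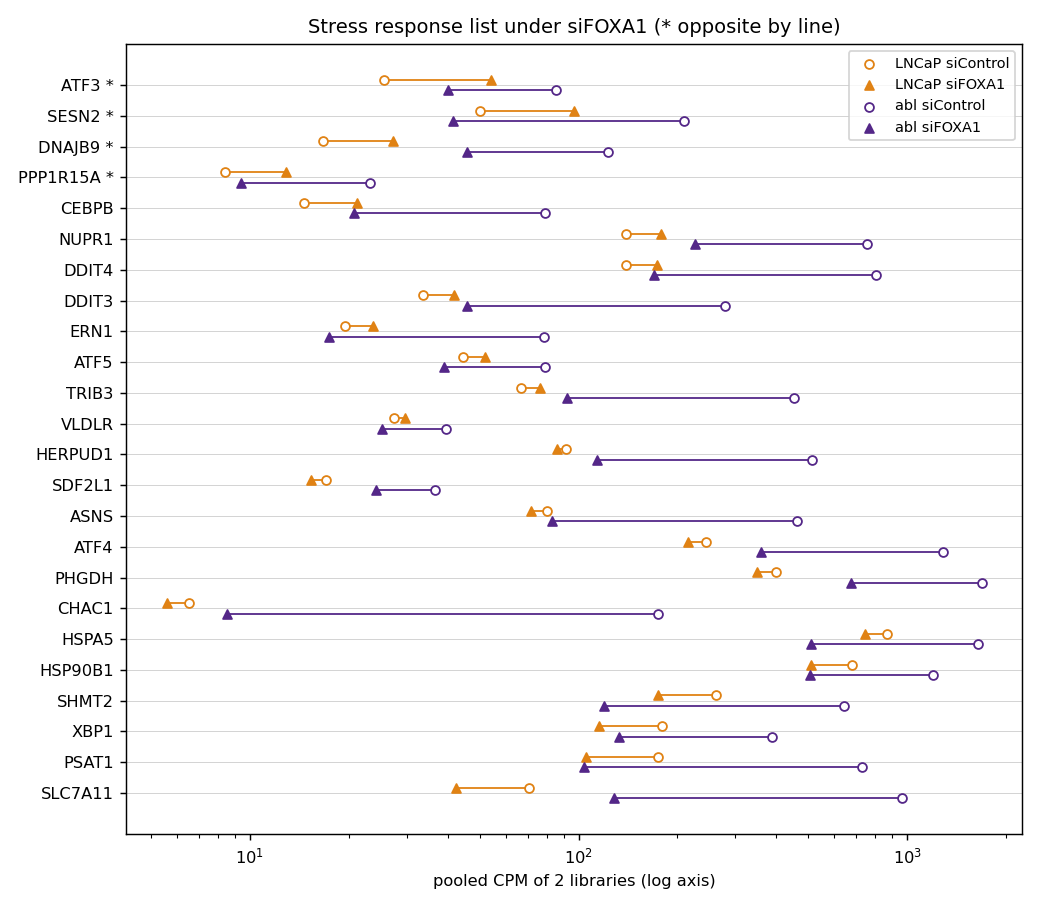
Pooled CPM (log axis) of the 24 stress response genes under siControl and siFOXA1 in each line, genes in rows, members marked with an asterisk. In abl 23 of the 24 are past the downward fold limit, whereas in LNCaP most pairs of points lie close together and the 4 members move up.

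The promoters of PPP1R15A, TUBB2A and PNMA3 are printed because they hold the full element that CREB1 is known to bind, and that of ATF3 because it is the stress factor among the members. Sequences are from RefSeq on GRCh38.p14, 250 bases before the annotated start, written 5′ to 3′ in the gene's orientation. In PPP1R15A (chr19:48872171-48872420, plus strand) and PNMA3 (chrX:153056220-153056469, plus strand) the capitals mark the full cAMP response element and its TGACG core; in TUBB2A (chr6:3157545-3157794, minus strand) they mark the same. In ATF3 (chr1:212565157-212565406, plus strand, 1 of 2 annotated starts) the capitals mark TGATGNAA, a core of amino acid response elements that was looked for after the members were known. The ATF3 start printed was picked because it held the most matches to the motifs searched.
PPP1R15A: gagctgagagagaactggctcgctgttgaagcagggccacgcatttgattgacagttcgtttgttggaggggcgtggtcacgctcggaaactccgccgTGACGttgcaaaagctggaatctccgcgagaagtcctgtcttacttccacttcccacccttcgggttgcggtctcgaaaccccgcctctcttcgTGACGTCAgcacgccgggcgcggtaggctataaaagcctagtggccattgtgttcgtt
ATF3: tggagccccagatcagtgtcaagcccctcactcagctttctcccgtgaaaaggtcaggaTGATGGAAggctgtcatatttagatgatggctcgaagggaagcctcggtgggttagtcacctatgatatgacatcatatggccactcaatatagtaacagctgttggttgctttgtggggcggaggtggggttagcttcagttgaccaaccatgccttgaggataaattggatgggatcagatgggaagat
TUBB2A: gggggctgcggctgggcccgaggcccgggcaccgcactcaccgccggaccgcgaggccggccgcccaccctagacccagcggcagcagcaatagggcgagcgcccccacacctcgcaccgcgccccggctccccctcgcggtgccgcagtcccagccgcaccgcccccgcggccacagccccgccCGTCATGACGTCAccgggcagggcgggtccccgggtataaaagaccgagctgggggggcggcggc
PNMA3: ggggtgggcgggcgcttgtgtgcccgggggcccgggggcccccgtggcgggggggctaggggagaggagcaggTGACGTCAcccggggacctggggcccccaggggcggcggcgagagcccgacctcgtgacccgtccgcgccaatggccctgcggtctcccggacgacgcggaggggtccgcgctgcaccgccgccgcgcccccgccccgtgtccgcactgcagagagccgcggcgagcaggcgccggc
Of the 75 members with a promoter entry of 300 bases (250 before to 50 after the start), 3 (4%) held the full element on either strand, namely PPP1R15A, TUBB2A and PNMA3, against 3.06% of 15467 genes. The TGACG core, which lies within that element and was also searched on both strands, stood in 28 of 75 (37.3%) against 34.9%. The forkhead letters TGTTTAC stood in 2 of 75 (2.67%; RIMS1 and IGF1) against 3.75%, and TGTTTGC in 4 (5.33%; TLL1, FURIN, SERPINA1 and A2ML1) against 4.45%. TGATGNAA stood in 5 (6.67%; ATF3, SLC3A2, SLITRK6, LRRTM1 and NCRNA00161) against 3.58%. A match is a description of letters in this window. Median GC content was 62.7% for the members higher in LNCaP, 67.5% for those higher in abl and 64.7% for all.

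Of the list of ion channels and solute carriers, 2 genes were members, SLC3A2 and SLC16A1, both of this direction. SLC3A2 is the heavy chain of amino acid exchangers. It measured 147 and 154 CPM, then 288 and 245 CPM in LNCaP, and 905 and 962 CPM, then 482 and 371 CPM in abl. SLC16A1, a lactate and pyruvate carrier, measured 104 and 111 CPM, then 209 and 224 CPM in LNCaP. In abl SLC16A1 measured 293 and 323 CPM, then 142 and 131 CPM, so LNCaP siFOXA1 lay above abl siFOXA1. GTPBP2, a GTPase that rescues stalled ribosomes, had pooled folds of 1.91 and 0.279. Of the 38 ion channel and carrier genes at the minimum level, 7 (18.4%) were past the upward and 14 (36.8%) past the downward limit in LNCaP. In abl these were 5 (13.2%) and 18 (47.4%). Over all genes at that level the shares were 10.4% and 10.5% in LNCaP and 14.3% and 15.6% in abl. Amino acid carriers outside that list, named after their values were seen, were of the other direction: SLC36A1, a proton-coupled amino acid transporter, had pooled folds of 0.576 and 2.17, and SLC6A17, an amino acid transporter of synaptic vesicles, of 0.542 and 1.55.

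A second group of members higher in LNCaP was nearly silent there under siControl and well expressed in abl. TNC encodes tenascin C, a matrix protein of wounds and tumour stroma. In LNCaP it had 18 and 10 counts under siControl (0.653 and 0.658 CPM) and 4.06 and 3.73 CPM under siFOXA1. In abl it had 66.1 and 73 CPM, then 24.7 and 20.1 CPM. The change in LNCaP therefore starts from a few reads, and abl siFOXA1 stayed above every LNCaP library. CD55, which protects cells from complement, had 1.67 and 0.921 CPM, then 4.77 and 3.65 CPM in LNCaP. In abl CD55 had 78.7 and 96 CPM, then 10.5 and 12.9 CPM, a pooled fold of 0.148. SLPI, a secreted protease inhibitor of epithelia, had pooled folds of 2.43 and 0.257. KIF26B, an atypical kinesin, had 0.544 and 0.724 CPM, then 3.13 and 3.01 CPM in LNCaP, and 57.7 and 54.1 CPM, then 28.8 and 24.6 CPM in abl.

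Other members of this direction lay closer together in the lines under siControl. ODZ4, a teneurin of neuronal adhesion, had the largest LNCaP fold of the 55, 8.75, from 0.69 and 0.592 CPM to 12.1 and 7.34 CPM. In abl ODZ4 went from 2.28 and 1.54 CPM to 0.697 and 0.455 CPM. NTNG1, a netrin-related cell surface protein, went from 3.34 and 2.24 CPM to 22.8 and 15.5 CPM in LNCaP, and from 4.1 and 4.18 CPM to 1.57 and 1.78 CPM in abl. Under siFOXA1 both LNCaP libraries were above both abl libraries for either gene. The transcript LOC100505633 ranked first of the 55 by the smaller of its log2 folds (1.76). It had 3.88 and 5.13 CPM, then 21.1 and 15.8 CPM in LNCaP, and 24.8 and 27.8 CPM, then 7.11 and 7.16 CPM in abl. DEPDC1, a mitotic gene, went from 14.9 and 14.9 CPM to 30.6 and 28.6 CPM in LNCaP and from 31.5 and 34.6 CPM to 3.62 and 4.34 CPM in abl. CKS1B, a cyclin-dependent kinase subunit, had pooled folds of 1.6 and 0.315. All 30 genes of the mitosis list were past the downward limit in abl and 14 in LNCaP, with 0 past the upward limit in either line. Of all genes at the minimum level, 15.6% were past the downward limit in abl and 10.5% in LNCaP. None of these 30 mitosis genes is a member.

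Members with few reads are given as raw counts. CYP1A1, the aryl hydrocarbon receptor's classic target, had 47 and 15 counts, then 255 and 189 counts in LNCaP. In abl it had 27 and 4 counts, then 4 and 5 counts, which is 0.724 and 0.44 CPM, then 0.174 and 0.207 CPM. LCN2, a siderophore-binding protein of inflammation, had 4 and 4 counts, then 18 and 10 counts in LNCaP, and 101 and 35 counts, then 9 and 8 counts in abl. SERPINA1, alpha-1 antitrypsin, had 35 and 19 counts, then 140 and 157 counts in LNCaP. In abl it had 32 and 0 counts under siControl and 5 and 3 counts under siFOXA1, so its place among the members rests on the first abl siControl library. ANK1, which anchors membrane proteins to spectrin, had 13 and 7 counts, then 3 and 1 counts in abl. HIST1H2BO and HIST3H2BB belong to a family of near-identical histone genes, and their counts are uncertain.

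Genes of the secretory route, chosen after their values were seen, were also among the 55. CTAGE5, which helps load cargo for export from the endoplasmic reticulum, had pooled folds of 1.71 in LNCaP and 0.411 in abl. EDEM2, of the pathway that clears misfolded glycoproteins, had 1.56 and 0.646, and PIGA, which starts the synthesis of membrane anchors such as that of CD55, had 1.68 and 0.506. FURIN, the protease that matures secreted precursors, measured 86.2 and 71.2 CPM, then 150 and 143 CPM in LNCaP, and 311 and 315 CPM, then 172 and 169 CPM in abl. All 4 were expressed more in abl than in LNCaP under siControl. That is not particular to them: for 48 of the 55 both abl libraries were above both LNCaP libraries.

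**Figure D3:**
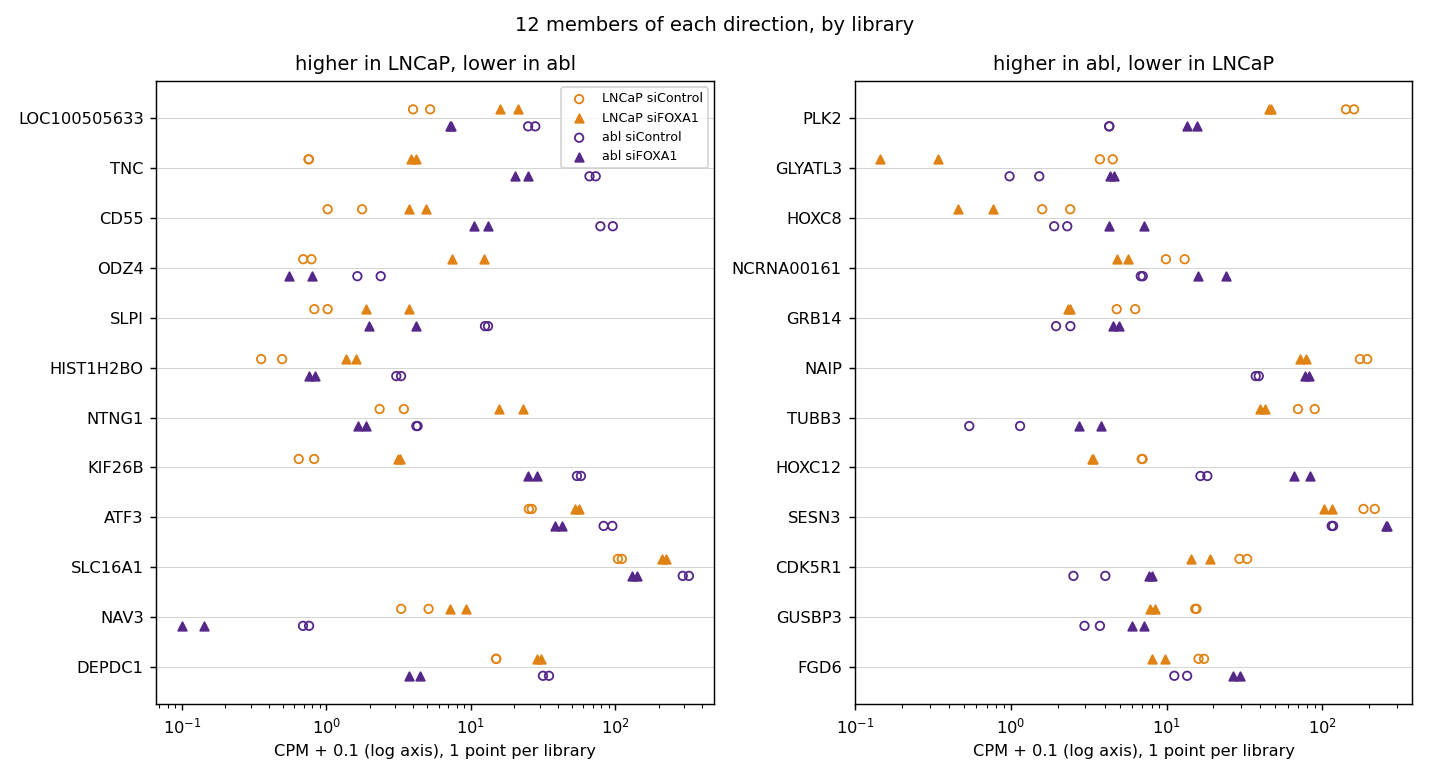
CPM with 0.1 added (log axis) in each library for the 12 members of each direction whose smaller fold is largest, 1 point per library, with colour for the line and open circles for siControl, triangles for siFOXA1. For TNC, CD55 and KIF26B the LNCaP points lie left of the abl points in every group, and for PLK2 and TUBB3 right of them, whereas ATF3 and SLC16A1 cross over.

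Among the 48 members higher in abl, PLK2 led. PLK2 is a polo-like kinase with roles in centriole duplication and stress. It measured 142 and 160 CPM, then 46.7 and 45.1 CPM in LNCaP, and 4.18 and 4.18 CPM, then 15.7 and 13.4 CPM in abl. Its pooled folds were 0.311 and 3.2, so the lines moved toward each other without meeting. GLYATL3, of the glycine acyltransferase family, had 3.63 and 4.41 CPM, then 0.0441 and 0.238 CPM in LNCaP, the latter from 1 and 6 counts. In abl GLYATL3 went from 1.42 and 0.88 CPM to 4.23 and 4.47 CPM. MIPEP, a mitochondrial peptidase, had 115.7 and 114.7 CPM, then 22.5 and 24.1 CPM in LNCaP, and 14.7 and 15.1 CPM, then 22.5 and 22.6 CPM in abl, where the siFOXA1 levels of the lines nearly coincided.

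TUBB3, the neuronal beta-tubulin, was the 1 member from the neuroendocrine and neuronal list. It had 89.3 and 69.7 CPM, then 39.9 and 42.9 CPM in LNCaP, and 1.04 and 0.44 CPM, then 3.71 and 2.65 CPM in abl. SEPT3, a septin of neurons, had 174 and 187 CPM, then 108 and 109 CPM in LNCaP. In abl SEPT3 had 2.28 and 1.65 CPM, then 16.2 and 12.7 CPM, a pooled fold of 5.62. CDK5R1, the activator of the neuronal kinase CDK5, had pooled folds of 0.538 and 2. TUBB2A, another beta-tubulin with near-identical copies, had pooled folds of 0.646 and 1.67. Genes with roles in neurons also stood among the members of the other direction: NTNG1 and ODZ4 (above), PRPH, a neuronal intermediate filament, with pooled folds of 2.82 and 0.573, and the neuronal surface proteins LRRTM1 (1.57 and 0.283) and SLITRK6 (1.67 and 0.4). TUBB2A and PRPH were named after their values were seen. Of the 20 genes of the neuroendocrine and neuronal list, only 5 reached the minimum level, which a gene can reach through its highest group alone. All 5 were past the upward limit in abl, against 14.3% of all genes at that level. In LNCaP 2 were past it and 1 was past the downward limit, against 10.4% and 10.5%. With so few genes left by this filter, nothing is read from the counts.

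Another set reached levels in abl under siFOXA1 that were above every LNCaP library. HOXC12, a posterior homeobox gene, went from 6.82 and 6.91 CPM to 3.22 and 3.25 CPM in LNCaP and from 18.2 and 16.4 CPM to 65.4 and 83.5 CPM in abl. HOXC8, of the same cluster, had pooled folds of 0.44 and 2.57, and by RefSeq order 3 coding genes lie between them. Another homeobox gene, HOXB9, was a member of the other direction, with pooled folds of 2.32 and 0.647. GSTA1, a glutathione transferase, went from 6.97 and 9.08 CPM to 4.86 and 3.96 CPM in LNCaP and from 12.8 and 11.3 CPM to 110 and 54 CPM in abl. ATP12A, a proton pump of epithelia, had 1.49 and 1.25 CPM, then 0.75 and 0.714 CPM in LNCaP. In abl ATP12A had 1.18 and 2.64 CPM, then 26.1 and 21.8 CPM, a pooled fold of 12.4, the highest of the 103. CADM1, an adhesion molecule, had pooled folds of 0.63 and 4.94. The remaining members among the first 12 by rank were GRB14, an adaptor of the insulin receptor (pooled folds 0.482 and 2.1), FGD6 (0.551 and 2.1), NAIP, an inflammasome sensor (0.413 and 2.06), NCRNA00161 (0.455 and 2.79) and GUSBP3 (0.54 and 1.99). PNMA3, whose promoter is printed above, had pooled folds of 0.573 and 2.03.

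Metabolic and receptor genes completed this direction. FASN, which makes palmitate and is an androgen-responsive gene in prostate cells, had 2369 and 1679 CPM, then 1073 and 1456 CPM in LNCaP. In abl FASN had 1282 and 977.7 CPM, then 2510 and 2842 CPM, so abl siFOXA1 was above every LNCaP siControl library. SESN3, a sestrin like SESN2 but of the opposite direction here, had 217 and 184 CPM, then 102 and 115 CPM in LNCaP, and 117 and 115 CPM, then 261 and 255 CPM in abl. PTGER3, a prostaglandin E2 receptor, had pooled folds of 0.651 and 1.72, and CHRM1, a muscarinic receptor, of 0.572 and 1.53. CD24, a surface glycoprotein of luminal cells, had pooled folds of 0.378 and 1.61. Reads of CD24, NAIP, GUSBP3 and PI4KAP2 can come from near-identical copies, so their counts are uncertain.

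By RefSeq gene order, 2 pairs of members of opposite direction were next to each other among coding genes: SLC3A2 with CHRM1 on chromosome 11, and GCNT3 with FAM81A on chromosome 15. Of the 103 members, 94 were protein-coding in RefSeq.

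The members nearest the limits were FLRT1, with a LNCaP fold of 1.502, and ST6GALNAC5 and TOX2, each with an abl fold of 1.505. Just outside were FRAS1 (abl fold 0.6673), NUPL1 (LNCaP fold 1.498) and FAM198B (abl fold 1.496). At the level limit, GCNT3, HIST3H2BB and CORO1A were inside with a highest pooled CPM of 2.18, 2.26 and 2.48, and NTS, CCR2 and SLC4A10 outside with 1.73, 1.6 and 1.57. Leaving out each of the 8 libraries in turn, 28 of the 55 and 24 of the 48 met the rule every time, among them ATF3, SESN2, SLC3A2, SLC16A1, TNC, CD55, PLK2, SEPT3, TUBB3 and HOXC12. DNAJB9, FASN, CD24, CADM1, CYP1A1 and ATP12A did not.

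The gap between the lines changed with the siRNA. Under siControl, both abl libraries were above both LNCaP libraries for 48 of the 55 members higher in LNCaP, and below for 6. Under siFOXA1 the numbers were 15 and 35. For the 48 genes of the other direction, abl was above in 9 and below in 32 under siControl, and above in 26 and below in 17 under siFOXA1. The median log2 ratio of abl to LNCaP went from 1.77 under siControl to -0.34 under siFOXA1 in the first direction and from -1.21 to 0.77 in the second. The choice of members fixes much of this, since their folds are opposite by rule. Shares over all genes are not given for these counts. How far the gaps are particular to the members therefore cannot be told.

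**Figure D4:**
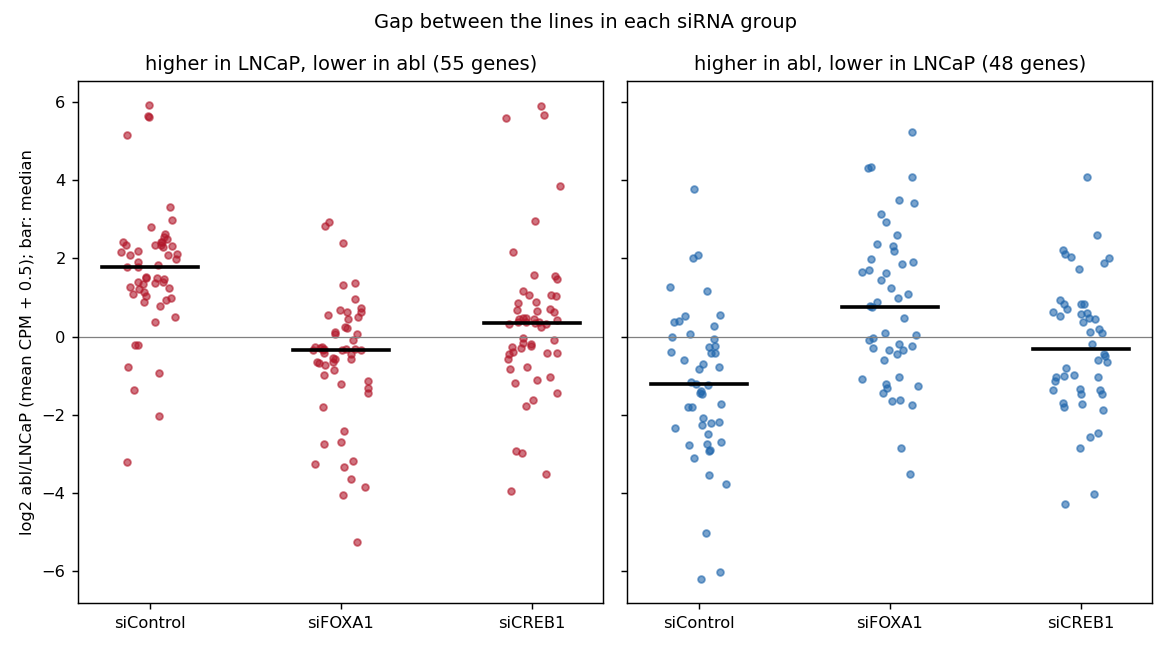
Log2 ratio of abl to LNCaP (mean CPM with 0.5 added) in the siControl, siFOXA1 and siCREB1 groups, 1 point per member, with bars at the medians. The medians of the 55 genes on one panel are 1.77, -0.34 and 0.35, and of the 48 on the other -1.21, 0.77 and -0.31.

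The siCREB1 libraries were not used in the choice, and the comparison of the lines within them shares no library with it. Of the 55 members higher in LNCaP, 28 were called higher in abl than in LNCaP under siCREB1 and 13 lower, by the edgeR fit (Benjamini-Hochberg adjusted p below 0.05). Of the 48 others, 21 were called higher and 23 lower. Over all 15550 tested genes, 31.6% were called higher, 30.1% lower and 61.7% either way. The median log2 difference was 0.467 for the 55 and -0.218 for the 48, against 0.0144 for all genes. A line difference was called for 85 of the 103 members, in both directions.

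KIF26B was higher in abl by 7.23 ± 0.19 on the log2 scale (SE, edgeR adjusted p = 1.08e-12), from 0.156 and 0.378 CPM in LNCaP to 37.5 and 38.4 CPM. TNC was higher by 6.5 ± 0.16 (edgeR adjusted p = 4.82e-13). LRRTM1, a synaptic adhesion protein, had 0 and 1 counts in LNCaP siCREB1 against 680 and 793 counts in abl. For all of these, both abl libraries were above both LNCaP libraries under siControl as well. SLC5A1, the intestinal glucose transporter, and C10orf58 were also higher in abl, by 4.48 ± 0.27 and 4.27 ± 0.07 (edgeR adjusted p = 5.47e-09 and 4.14e-14). In the other direction, SLITRK6 was lower in abl by 4.88 ± 0.20, with 15.6 and 12.3 CPM in LNCaP and 0.436 and 0.432 CPM in abl (edgeR adjusted p = 9.55e-11). NAV3, a microtubule-associated navigator protein, had 4.4 and 4.39 CPM in LNCaP and 0.131 and 0.118 CPM in abl. CYP1A1 had 195 and 165 counts in LNCaP and 7 and 0 in abl, ANK1 34 and 37 against 1 and 1, and SERPINA1 26 and 22 against 0 and 1. For ATF3 and PPP1R15A the difference under siCREB1 did not pass, at -0.09 ± 0.09 and -0.06 ± 0.14 (edgeR adjusted p = 0.375 and 0.748).

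CREB1 knockdown against siControl shares the siControl libraries with the choice of members, so it is not independent of it, and each comparison's own values are given side by side. CREB1 itself stood at 81.4 and 87.6 CPM under siControl and at 40.9 and 31 CPM under siCREB1 in LNCaP, and at 76 and 78.6 CPM, then 44.8 and 42.6 CPM in abl. In abl, 48 of the 55 members higher in LNCaP fell and 1 rose, with a median log2 change of -1.41. Of the 48 higher in abl, 39 rose and 1 fell, with a median of 0.985. Over all tested genes 27.5% rose, 23.7% fell and 51.2% changed either way in abl by edgeR's test, with a median of 0.0274. LRRTM1 was the exception that rose among the 55, and PTGER3 the one that fell among the 48.

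In LNCaP, of the 55, 17 rose and 4 fell, and of the 48, 4 rose and 16 fell, against 17.8% of all tested genes that rose, 19.8% that fell and 37.6% that changed either way. The medians were 0.192 and -0.188, against -0.00197 for all genes. Opposite changes in both lines were called for 14 of the 55 (25.5%), which rose in LNCaP and fell in abl, against 1.23% of all tested genes. Of the 48, 13 (27.1%) fell in LNCaP and rose in abl, against 1.9%. With both first siControl libraries left out, the calls in abl were 43 that fell and 1 that rose of the 55, and 30 that rose and 0 that fell of the 48. In LNCaP 14 of the 55 rose and 3 fell, and 3 of the 48 rose and 14 fell. In that setting 6786 of all tested genes were called in abl either way, against 7962 with all libraries. The second siControl libraries also entered the choice of members, so these calls are not independent of it either. Shares of all genes by direction are not given for that setting, so nothing further is read from its counts.

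The line difference in the siCREB1 effect was tested as an interaction in the same fit. It uses the siControl libraries of both lines, which the choice of members also used. The 55 were taken for a siControl above siFOXA1 in abl and below it in LNCaP, and the 48 for the reverse. The choice therefore favours the signs below, and the counts are not independent of it. The abl effect was lower than the LNCaP effect for 47 of the 55 and higher for 0 (edgeR adjusted p below 0.05), and higher for 36 of the 48 and lower for 0. Over all tested genes 14.8% were called higher, 10.8% lower and 25.5% either way. At an unadjusted p below 0.05 the counts were 47 lower and 2 higher of the 55, and 41 higher and 0 lower of the 48. DESeq2 gave 46 and 1, then 29 and 0, and edgeR without both first siControl libraries 37 and 0, then 24 and 0. Shares over all genes are given only for the adjusted edgeR test with all libraries, so nothing is read from the other counts. The median difference was -1.61 for the 55, 1.06 for the 48 and 0.0467 for all genes.

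**Figure D5:**
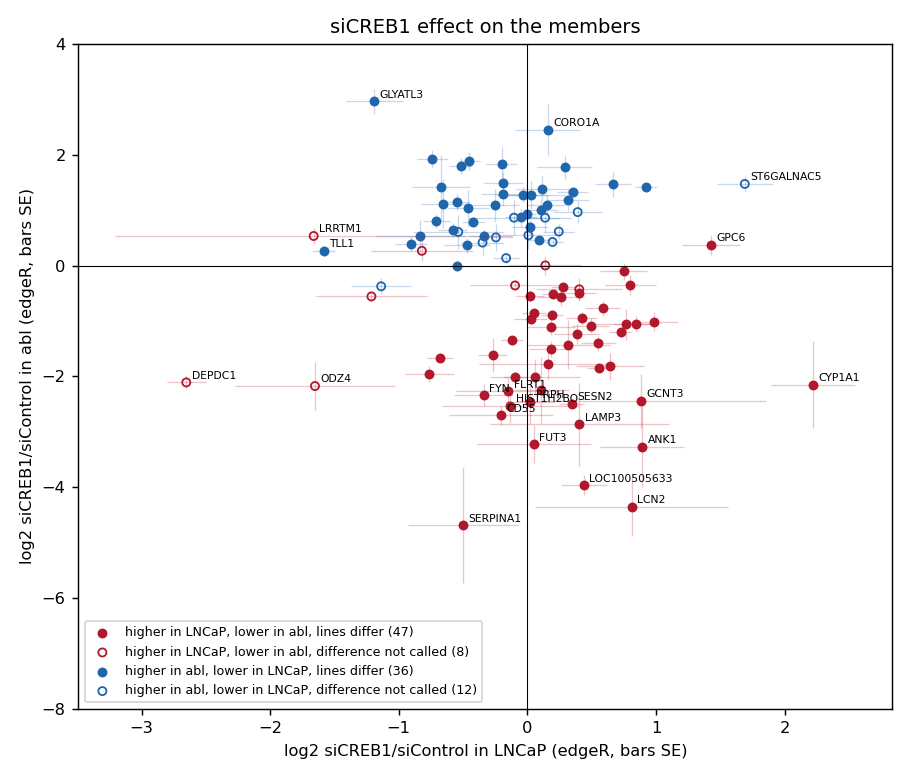
Log2 siCREB1/siControl of the members in LNCaP (x axis) and abl (y axis) from the edgeR fit, with SE bars; filled points mark members whose effect differed between the lines (47 and 36). Most of the 55 genes higher in LNCaP after FOXA1 knockdown lie below 0 on the y axis and most of the 48 others above it. On the x axis both sets reach to either side of 0, with medians of 0.192 for the 55 and -0.188 for the 48.

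Of the 4 stress response members, ATF3, SESN2 and PPP1R15A changed in opposite directions under siCREB1. ATF3 rose in LNCaP from 25.1 and 26.3 CPM to 43.7 and 43.9 CPM and fell in abl from 82.8 and 95.2 CPM to 40.6 and 35.5 CPM. The changes were 0.73 ± 0.09 and -1.21 ± 0.09 (SE, edgeR adjusted p = 3.97e-05 and 9.67e-08), and their difference was -1.93 ± 0.12 (edgeR adjusted p = 2.43e-07). SESN2 rose by 0.35 ± 0.10 in LNCaP and fell by 2.49 ± 0.10 in abl (edgeR adjusted p = 0.0121 and 5.08e-10). PPP1R15A rose by 0.49 ± 0.15 and fell by 1.08 ± 0.14 (edgeR adjusted p = 0.017 and 1.74e-05). DNAJB9 fell by 1.51 ± 0.14 in abl (edgeR adjusted p = 1.42e-06) and was 0.18 ± 0.17 in LNCaP (adjusted p = 0.432). SLC3A2 rose by 0.55 ± 0.13 and fell by 1.41 ± 0.13 (edgeR adjusted p = 0.00459 and 9.27e-07), whereas SLC16A1 fell by 1.35 ± 0.08 in abl and was -0.12 ± 0.08 in LNCaP (adjusted p = 2.89e-08 and 0.279). In the whole stress response list, 23 of 24 genes fell and 0 rose in abl under siCREB1, and 9 rose and 6 fell in LNCaP. Over all tested genes 23.7% fell and 27.5% rose in abl, and 17.8% rose and 19.8% fell in LNCaP. The line difference of the list was lower for 23 and higher for 0 by edgeR's adjusted p, against 10.8% and 14.8% of all tested genes. DESeq2 and an unadjusted p below 0.05 gave the same counts for the line difference. For these alternatives, and for the one that follows, no share over all genes is given. With both first siControl libraries left out, 23 of the list fell and 1 rose in abl, 8 rose and 6 fell in LNCaP, and the line difference was lower for 21 and higher for 0.

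Among the members higher in abl, GLYATL3 fell in LNCaP by 1.19 ± 0.22 and rose in abl by 2.96 ± 0.22 (SE, edgeR adjusted p = 0.000973 and 1.36e-07). Its libraries read 1.71 and 1.85 CPM in LNCaP and 9.82 and 10.4 CPM in abl under siCREB1, and the abl libraries were above those under siFOXA1. CD24 fell by 0.74 ± 0.12 and rose by 1.92 ± 0.16 (edgeR adjusted p = 0.000375 and 4.47e-07). SEPT3 fell by 0.45 ± 0.08 and rose by 1.88 ± 0.16 (edgeR adjusted p = 0.000738 and 5.88e-07), and PLK2 fell by 0.52 ± 0.09 and rose by 1.79 ± 0.15 (edgeR adjusted p = 0.000562 and 3.03e-07). TUBB3 rose in abl by 1.83 ± 0.31 and was -0.20 ± 0.12 in LNCaP (edgeR adjusted p = 0.000231 and 0.214). CORO1A, an actin-binding protein of blood cells, rose in abl by 2.46 ± 0.47 from 9 and 1 counts to 21 and 37 counts (edgeR adjusted p = 0.000559). Some rises in abl were larger with both first siControl libraries left out. They were 2.91 for TUBB3, 3.41 for CORO1A, 3.55 for GLYATL3 and 2.29 for SEPT3. These estimates rest on 1 abl siControl library, which held 4, 1, 8 and 15 counts in that order. FASN rose in abl by 1.78 ± 0.22 and was 0.29 ± 0.21 in LNCaP (edgeR adjusted p = 1.37e-05 and 0.306).

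Not all members behaved alike under the 2 knockdowns. DEPDC1, higher in LNCaP under siFOXA1, fell in LNCaP under siCREB1 from 14.9 and 14.9 CPM to 2.26 and 2.61 CPM, a log2 change of -2.65 ± 0.15 (edgeR adjusted p = 6.5e-08). In abl it changed by -2.11 ± 0.13 (edgeR adjusted p = 1.98e-08). CKS1B and IGF1, a growth factor, likewise fell in both lines. KIF26B fell in LNCaP by 1.21 ± 0.43 (edgeR adjusted p = 0.0402), on 4 and 10 counts, a call lost without LNCaP siCREB1 library 1 or either LNCaP siControl library (adjusted p = 0.0822 to 0.326), and without LNCaP siCREB1 library 2 the change was -1.97. GPER, the G protein-coupled estrogen receptor, rose in both lines, by 0.93 ± 0.09 in LNCaP and 1.41 ± 0.08 in abl (edgeR adjusted p = 3.41e-06 and 1.87e-08). ST6GALNAC5, a sialyltransferase, rose in both by 1.69 ± 0.22 and 1.47 ± 0.15 (edgeR adjusted p = 5.73e-05 and 2.26e-06). PTGER3 fell in both, by 1.14 ± 0.23 and 0.37 ± 0.14 (edgeR adjusted p = 0.00187 and 0.0435). GPC6, a glypican, rose in LNCaP by 1.43 ± 0.23 (edgeR adjusted p = 0.000275), and in abl, where its siFOXA1 fold was 0.378, it was 0.37 ± 0.19 (adjusted p = 0.11).

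TLL1 and C17orf91 moved under siCREB1 in the same directions as under siFOXA1. TLL1, a metalloproteinase of the BMP1 family, fell by 1.58 ± 0.09 in LNCaP and rose by 0.27 ± 0.09 in abl (edgeR adjusted p = 6.17e-08 and 0.0249), beside siFOXA1 folds of 0.565 and 2.06. C17orf91 rose by 0.99 ± 0.18 in LNCaP and fell by 1.01 ± 0.17 in abl (edgeR adjusted p = 0.000955 and 0.000217), beside siFOXA1 folds of 2.15 and 0.622. These comparisons share the siControl libraries.

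The largest falls in abl under siCREB1 included members with few reads. LOC100505633 fell from 24.8 and 27.8 CPM to 1.53 and 1.77 CPM, a log2 change of -3.97 ± 0.18 (edgeR adjusted p = 1.7e-09), and so stood lower than under siFOXA1. LCN2 went from 101 and 35 counts to 4 and 3 counts, a change of -4.36 ± 0.53 (edgeR adjusted p = 1.22e-05). FUT3, a fucosyltransferase, went from 96 and 23 counts to 6 and 7 counts, and ANK1 from 13 and 7 counts to 1 and 1 counts. CYP1A1 rose in LNCaP by 2.22 ± 0.33 (edgeR adjusted p = 0.000166) and fell in abl by 2.15 ± 0.78 (adjusted p = 0.034). The line difference of CYP1A1, -4.37, was -9.28 without the first abl siCREB1 library, which leaves 0 counts in that group, and no longer passed without the first abl siControl library (adjusted p = 0.122). SERPINA1 changed by -4.69 ± 1.05 in abl (edgeR adjusted p = 0.00197), but without the first abl siControl library the estimate was 2.29 (adjusted p = 0.667).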

How the data were processed

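Raw read counts per gene were deposited by the authors for 6 RNA samples, each with 2 count columns, which were taken here as 2 libraries. Per the submitters' processing notes, the tools were HTSeq 0.5.3p9 for counts, TopHat2 2.0.8 with Bowtie2 2.1.0, and CASAVA 1.8, on hg19, with annotation and strand setting not given in the sources used here. Since the kit in the labels' protocols keeps no strand, overlapping and antisense genes are uncertain. Columns headed SIC were taken for siControl, and the 8 repeats of them were identical and used once. The authors' deposited tables of log2 fold changes and p-values are tied to edgeR 3.0.6 by the same notes. Lines that name no gene were left out: no feature 54.8% to 58.3%, ambiguous 0.774% to 0.924%.

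CPM here are counts over gene totals, without TMM. Tests used edgeR 4.0.16 in R 4.3.3 with limma 3.58.1: all 12 libraries in 1 fit, TMM factors of 0.949 to 1.06, filterByExpr (15550 genes), the quasi-likelihood F-test (residual degrees of freedom 6) and Benjamini-Hochberg adjustment over all tested genes. SE is the absolute log2 change over the square root of F. The common biological coefficient of variation was 0.0625, and the fit was checked on simulated data. Alternatives were DESeq2 1.42.0, other size factors, no filter, only the groups compared, libraries left out and a replicate block.

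The rule for named genes takes the 12 members of each direction with the largest smaller fold, up to 4 members per gene list, the 3 nearest each limit, and the 5 largest rises and falls per siCREB1 test; others named (such as MIPEP, GSTA1, ATP12A, CKS1B and IGF1) were chosen after their values were seen. The members and the 25 gene lists were chosen with earlier results of these data known. The promoter table is RefSeq on GRCh38.p14: 99 members matched a current symbol and 75 a promoter. Of the genes that met the values, 1 is not reported here. Peak lists, also deposited by the authors with a score per peak, were not used here.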

Additional observations from a re-analysis of the deposited data

Results flagged for a closer look

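The members below had a siCREB1 effect that differed between the lines in the interaction test (edgeR, Benjamini-Hochberg adjusted p below 0.05); they are the 5 with the largest difference each way. Values are the abl effect minus the LNCaP effect on the log2 scale with SE. The same siControl libraries entered the choice of members. The difference was 4.15 ± 0.32 for GLYATL3 (edgeR adjusted p = 9.9e-07), 2.66 ± 0.20 for CD24 (adjusted p = 1.05e-06), 2.33 ± 0.18 for SEPT3 (adjusted p = 1.27e-06), 2.31 ± 0.17 for PLK2 (adjusted p = 8.17e-07) and 2.3 ± 0.54 for CORO1A (adjusted p = 0.00672). In the other direction it was -5.17 ± 0.96 for LCN2 (edgeR adjusted p = 0.00146), -4.40 ± 0.26 for LOC100505633 (adjusted p = 1.26e-07), -4.37 ± 0.83 for CYP1A1 (adjusted p = 0.00174), -4.19 ± 1.22 for SERPINA1 (adjusted p = 0.022) and -4.16 ± 0.80 for ANK1 (adjusted p = 0.00188). LCN2, CYP1A1, SERPINA1, ANK1 and CORO1A rest on few reads in abl. With both first siControl libraries left out, the difference for CORO1A was 3.50 (edgeR adjusted p = 0.0303).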

How the results depend on the processing

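With a fold of 2 and 0.5 as the limits, 10 genes were higher in LNCaP and lower in abl and 6 the reverse; with 1 CPM added in place of 0.5, the second direction held 30 genes and the first 41, and with 0.1 CPM 72 and 78. Leaving out 1 library gave 49 to 66 and 48 to 61 genes. Leaving out both first siControl libraries, chosen after seeing the data, gave 57 and 68. These totals include genes that are not members. With both first siControl libraries left out, 39 members of the first direction (70.9%) and 36 of the second (75%) still met the rule. Without 1 library, 78.2% to 98.2% and 85.4% to 93.8% of the members did. With 1 CPM added, 74.5% and 62.5% did. The mean of library CPM in place of summed counts kept 89.1% and 87.5%. Counts of called members stayed within 1.5 times of the reported ones under every alternative run. Of 438 alternative values of 40 named results, 423 kept their direction and call, 11 kept the direction and lost the call and 4 reversed. The siCREB1 effects of SERPINA1 and ANK1 in abl had no value with only the groups compared. They are not among the 438 for that setting. All 4 reversals were SERPINA1: without the first abl siControl library its abl siCREB1 effect was 2.29 and its line difference 2.77, and with both first siControl libraries left out they were 2.26 and 2.70 (edgeR adjusted p = 0.66 to 0.686), while without the second abl siCREB1 library they were -7.02 and -6.55; its siControl counts without that library are 0. The lost calls were KIF26B in LNCaP (5 alternatives) and the line differences of LCN2 (without LNCaP siCREB1 library 1, adjusted p = 0.0779), CYP1A1 (2) and SERPINA1 (3); their cause was not tested. The count columns carry numbers, but the labels tie them to no shared culture or batch. The correlation of same-numbered deviations was 0.113, 0.082 and -0.165 in the 3 comparisons of 2 groups and ran from -0.165 to 0.519 over all pairs of groups, so whether the numbers pair samples was not settled. With the replicate block, members called higher and lower were 50 and 36 for abl against LNCaP under siCREB1, 40 and 49 for siCREB1 in abl, 22 and 23 in LNCaP (21 and 23 with the LNCaP siControl numbers crossed) and 37 and 47 for the line difference. The analysis of FOXA1 and CREB1 peaks at members, with its alternatives, was not run. Depth limits the members with few reads: the second abl siControl library holds 9092597 gene-assigned reads.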
